A study of Mus musculus with 6 samples.

Results

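The sarcomere, excitation-contraction and fusion genes are a set of 39 mouse genes that encode proteins of the contractile apparatus, the calcium release machinery and the fusion of myoblasts. They were chosen by name from the 47069 genes of the count table, 38 by symbol and Mymk by its Ensembl identifier, because the table lists it under its older symbol Tmem8c. The rule uses gene names and no measured value. Each gene was read in 6 RNA-seq libraries of primary myoblasts of mdx mice, 3 treated with 10 μM PSB-KD107, an agonist of the receptor Gpr18, and 3 treated with vehicle. The question of the comparison is how the agonist affects the transcriptome of dystrophic myoblasts.

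Both groups carry the mdx mutation of the dystrophin gene, so that no healthy cells were compared. Per the study's methods, muscle stem cells were sorted by flow cytometry as negative for Sca-1, CD45, CD31 and CD11b and positive for the integrins Itga7 and Itgb1, and were then grown in Ham's F10 with serum and FGF2. The sample records describe a growth medium, and the study's methods do not state the medium of these libraries during the treatment. The cells came from 3 mice. The sample records give the treatment as 2 days and the paper's text as overnight, and the records call the same samples untreated in one place and vehicle-treated in another. The cells are labelled satellite cells, the stem cells of skeletal muscle.

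In skeletal muscle, myosin thick filaments pull on actin thin filaments inside the sarcomere. Calcium frees the thin filament by binding troponin, and the calcium is released from the sarcoplasmic reticulum when the membrane is depolarized. Myoblasts build this machinery when they leave the cell cycle, switch on Myog and fuse into myotubes. They first make embryonic, neonatal and cardiac-type isoforms, which slow and fast adult isoforms later replace. Myomaker, encoded by Mymk, is a membrane protein needed for the fusion itself.

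Promoter sequences from RefSeq (GRCm38.p6) are shown for Myh3 and Actc1, the developmental myosin and actin genes whose libraries did not overlap between the groups, and for Acta1, the adult actin gene whose libraries did. Myh3 starts on the plus strand of chromosome 11, and its window is chr11:67078050-67078299. Actc1 and Acta1 lie on the minus strand, with windows chr2:114052888-114053125 and chr8:123894776-123895025. Each sequence reads 5′ to 3′ towards the start site and ends 1 base before it, except that of Actc1, which ends 13 bases before it. The GENCODE model of Actc1 has a further start upstream of this window. That of Acta1 starts at chr8:123894751, downstream of the RefSeq start at 123894775, so positions counted back from it would be larger. Capitals mark E-boxes (CANNTG, bound by MyoD-family factors), CArG boxes (bound by serum response factor) and TATAAA.
Myh3: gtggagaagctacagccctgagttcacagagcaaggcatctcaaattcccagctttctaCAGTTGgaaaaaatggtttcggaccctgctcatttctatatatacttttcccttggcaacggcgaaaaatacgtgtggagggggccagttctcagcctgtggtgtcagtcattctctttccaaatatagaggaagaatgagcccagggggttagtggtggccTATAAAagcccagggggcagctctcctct
Actc1: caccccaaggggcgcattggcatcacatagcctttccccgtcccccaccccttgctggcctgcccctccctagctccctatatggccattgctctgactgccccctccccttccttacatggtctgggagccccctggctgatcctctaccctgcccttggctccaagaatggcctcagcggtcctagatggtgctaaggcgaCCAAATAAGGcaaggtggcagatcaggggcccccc
Acta1: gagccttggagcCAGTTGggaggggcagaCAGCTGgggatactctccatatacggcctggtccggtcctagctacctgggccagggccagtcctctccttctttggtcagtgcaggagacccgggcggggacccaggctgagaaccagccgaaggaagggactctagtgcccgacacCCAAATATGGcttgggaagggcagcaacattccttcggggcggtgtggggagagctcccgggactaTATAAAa

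Counted back from the RefSeq start site, the Myh3 window holds an E-box at bases 191 to 186 and TATAAA at bases 29 to 24. The Acta1 window holds E-boxes at bases 238 to 233 and 221 to 216, a CArG box at bases 73 to 64 and TATAAA at bases 7 to 2. The Actc1 window holds a CArG box at bases 47 to 38 and neither an E-box nor TATAAA. In the longer window used below, which runs to 50 bases after the start, Actc1 was among the promoters with CANNTG and with TATAAA. A RefSeq promoter was found for 32 of the 39 genes, and those of Cryab, Tnnt3, Myom2, Mymk, Tnni2, Neb and Myoz1 were not matched.

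Over the window from 250 bases before to 50 bases after the start, read on both strands, 27 of the 32 promoters held CANNTG (84.4%), against 75.0% of the 27025 promoters of all genes. The E-box form CAGCTG, which is contained in CANNTG, was in 14 of the 32 (43.8%) against 18.3% of all promoters. The 14 were those of Acta1, Atp2a1, Cacna1s, Casq1, Ckm, Des, Mybpc1, Mybph, Myl1, Mylpf, Myoz2, Tnni1, Tnnt2 and Tpm2. A CArG box was in 4 (12.5% against 1.81%), namely Acta1, Actc1, Ldb3 and Myom1, and TATAAA was in 9 (28.1% against 15.7%). A MEF2 site was in the promoters of Myoz2 and Ttn (6.25% against 0.636%). These shares describe letters in a window and say nothing of whether a factor was bound there.

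The libraries held between 30917613 and 48756794 counts. A floor of 3 counts corresponds to between 0.0596 and 0.0962 CPM (the counts of a gene scaled to a common library total), which covers counting error only, and 14165 genes had enough counts to be tested. All 39 genes were among them. Of the marker lists examined, myoblast markers summed to between 8175 and 9129 CPM, and leukocyte, endothelial and adipocyte markers to at most 6.60, 9.26 and 0.199 CPM. Fibroblast markers summed to between 361 and 850 CPM and smooth muscle markers to between 1715 and 4597 CPM, of which Acta2 alone reached 3956 CPM.

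Some libraries stood apart. PSB-KD107 library 4 had 63 counts for Dmd, the dystrophin gene, where the other 5 libraries had between 522 and 831. It was at least 2-fold above every other library for 507 genes and at least 2-fold below for 369. The proliferation marker Mki67 was at 41.1, 6.04 and 1.05 CPM in vehicle libraries 1, 2 and 4. In PSB-KD107 libraries 1, 2 and 4 it was at 14.1, 2.63 and 13.0 CPM, so that libraries 1 and 4 were nearly equal there. The libraries are numbered 1, 2 and 4 in the count table. Values below are given for every library in the order vehicle 1, 2 and 4 and then PSB-KD107 1, 2 and 4, as CPM normalized by TMM factors.

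The 39 genes took between 6.20% and 9.74% of all counts of a library. Per length of exon, 7 to 10 of the 20 most abundant genes of each library were among them, and 18 to 22 of the 100 most abundant. Ranked among all genes tested by mean CPM per kb over the 6 libraries, Acta1 was at rank 2, Mylpf at rank 3, Actc1 at rank 4, Myh3 at rank 6, Tnnc1 at rank 8, Tpm2 at rank 11 and Tnnt3 at rank 12. Cells labelled satellite cells, for which the sample records describe a growth medium, thus held the transcripts of differentiated muscle at high levels in both groups. Pax7, the stem cell factor, was present at between 26.8 and 68.8 CPM.

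**Figure D1:**
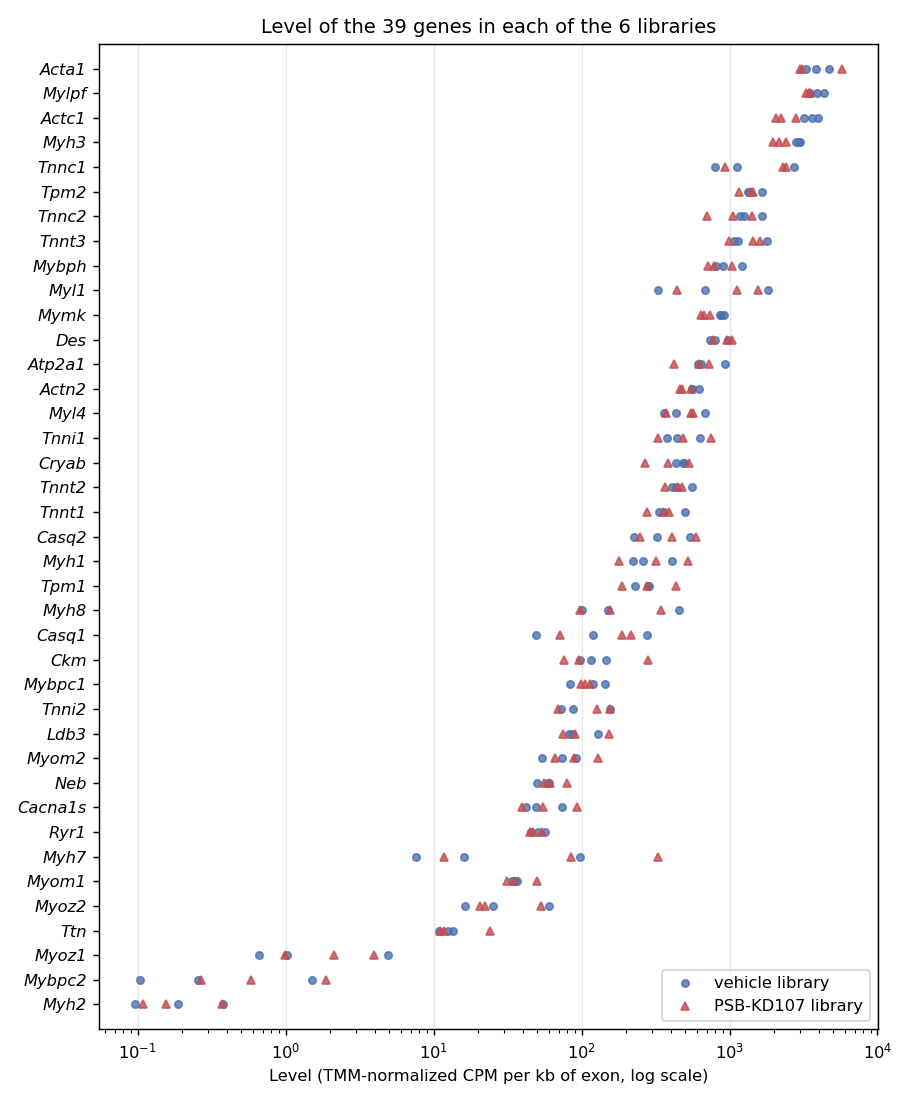
Levels of the 39 genes in each library, as TMM-normalized CPM per kb of exon on a log axis, with circles for the 3 vehicle and triangles for the 3 PSB-KD107 libraries, ordered by the vehicle mean. Acta1, Mylpf, Actc1 and Myh3 stand at the top, each above 1900 CPM per kb in every library, and Myh2 stands at the bottom below 0.4.

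The lowest members were adult fast genes. Myh2, the fast IIa myosin heavy chain, ranked 13018, Mybpc2, the fast myosin-binding protein C, ranked 11182, and Myoz1, a Z-disc calcineurin-binding protein of fast fibers, ranked 9053. Ttn, which encodes the giant spring protein titin, ranked 3511 per length, with a vehicle mean of 12.3 ± 1.36 CPM per kb (SD, n = 3) and of 1439 CPM before division by length. The annotated exons of Ttn cover 116825 bases, and isoforms were not resolved.

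In edgeR's quasi-likelihood test over all 6 libraries, 22 of the 39 genes had a positive and 17 a negative log2 fold change, and the median was 0.01, against -0.00074 over all genes tested. None of the 39 had an adjusted p under 0.05 over all genes tested, where 0.0% of all genes did. At an unadjusted p under 0.05, 0 genes were higher, against 6.47% of all genes, and 3 were lower (Actc1, Mymk and Myh3), against 2.93%. DESeq2, the package the study used, also called these 3 lower at an adjusted p under 0.05, where it called 0.93% of all genes lower, and it called 0 of the 39 higher, against 2.48%. These DESeq2 calls changed when single libraries were left out. Without vehicle 2, vehicle 4 or PSB-KD107 library 1, DESeq2 called 0 of the 39. Over all genes it then called 184, 195 and 291 in that order, against 480 with all 6 libraries. Actc1 was called in 1 of the 6 fits that left out a library, the one without PSB-KD107 library 4. Myh3 and Mymk were called in that fit and without vehicle 1 or PSB-KD107 library 2. All 3 genes had an unadjusted DESeq2 p under 0.05 in each of the 6 fits. Over libraries 1 and 2 alone, without either library numbered 4, the median of the 39 was -0.30 in edgeR. There, 0 were called at an adjusted p and 2 (Acta1 and Actc1) were lower at an unadjusted p under 0.05. With libraries of the same number taken as a block, edgeR called 23 of the 39 over libraries 1 and 2, among 2456 genes called. In that fit 29 of the 39 were lower at an unadjusted p under 0.05, and their median was -0.31, against -0.0094 over all genes. The share of all genes lower in that fit was not computed, so the 29 have no background beside them. After the block, few libraries were left to estimate the spread between replicates. The same block on all 6 libraries called 0 genes. Which library came from which mouse is not stated. The libraries of the 2 groups did not overlap for 5 genes, all of them lower with PSB-KD107, against 6.59% of all genes lower and 9.2% higher.

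By isoform class, the median of the log2 fold changes came to -0.25 for the 5 embryonic or cardiac-type members, 0.11 for the 7 slow members, 0.10 for the 11 fast members and 0.11 for the 16 members of no class. These medians moved with single libraries. Without vehicle library 1 they were 0.03, 0.59, 0.55 and 0.14 in the same order, and without PSB-KD107 library 4 they were -0.19, -0.13, -0.10 and -0.18.

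**Figure D2:**
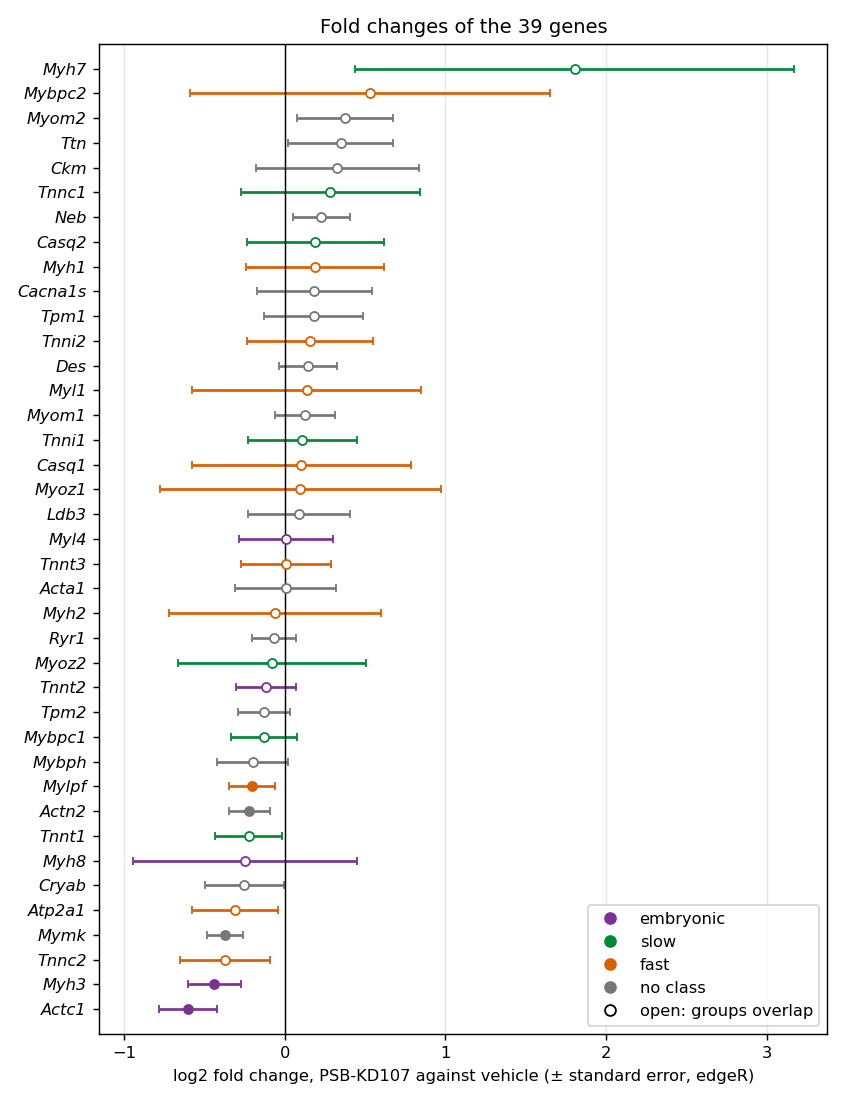
Log2 fold change of each of the 39 genes, PSB-KD107 against vehicle, with its standard error (SE) from edgeR. Colour gives the isoform class, and filled points are the 5 genes whose libraries did not overlap, all of which lie below 0.

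Myh3 encodes the embryonic myosin heavy chain, the motor of newly formed myotubes (ENSMUSG00000020908, chromosome 11 from 67078300 to 67102291 in GRCm38). It was at 18255, 17158 and 17968 CPM in the vehicle libraries and at 12991, 14588 and 11842 CPM in the PSB-KD107 libraries. All 3 PSB-KD107 libraries were below the lowest vehicle library, and the vehicle libraries lay close together. The mean went from 17794 ± 569 to 13141 ± 1379 CPM (SD, n = 3), a log2 fold change of -0.44 (SE, the standard error of the fit, 0.17), with an adjusted p of 0.493 in edgeR and 0.0049 in DESeq2. Without vehicle library 1, 2 or 4 or PSB-KD107 library 1, the unadjusted edgeR p rose to between 0.075 and 0.143, with log2 fold changes between -0.47 and -0.43.

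Myh8 encodes the neonatal (perinatal) myosin heavy chain. Its libraries were at 5398, 1779 and 1184 CPM with vehicle and at 4039, 1152 and 1845 CPM with PSB-KD107. The groups overlapped, and the libraries numbered 1 were the 2 highest. Its log2 fold change of -0.25 (SE 0.70) was smaller than the spread within either group, and with single libraries left out it ran from -0.91 (without PSB-KD107 library 1) to 0.66 (without vehicle library 1).

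Myh7 encodes the slow beta myosin heavy chain. It was at 845, 138 and 65.5 CPM with vehicle and at 736, 101 and 2832 CPM with PSB-KD107. Over all 6 libraries the highest value was 43.2 times the lowest, the widest range among the 39 genes, and PSB-KD107 library 4 alone was more than 2-fold above every other library. The log2 fold change was 1.81 (SE 1.36, adjusted p = 0.727 in edgeR), 0.26 without PSB-KD107 library 4 and 3.58 without vehicle library 1.

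Myh1 encodes the fast IIx myosin heavy chain. It was at 2609, 1643 and 1422 CPM with vehicle and at 2028, 1130 and 3307 CPM with PSB-KD107. PSB-KD107 library 4 was again the highest and PSB-KD107 library 2 the lowest, so the groups overlapped, and the log2 fold change of 0.19 (SE 0.43) became -0.26 without library 4. Myh2 was at 2.68, 1.35 and 0.682 CPM with vehicle and at 1.11, 0.770 and 2.64 CPM with PSB-KD107. Both groups overlapped at these low levels.

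**Figure D3:**
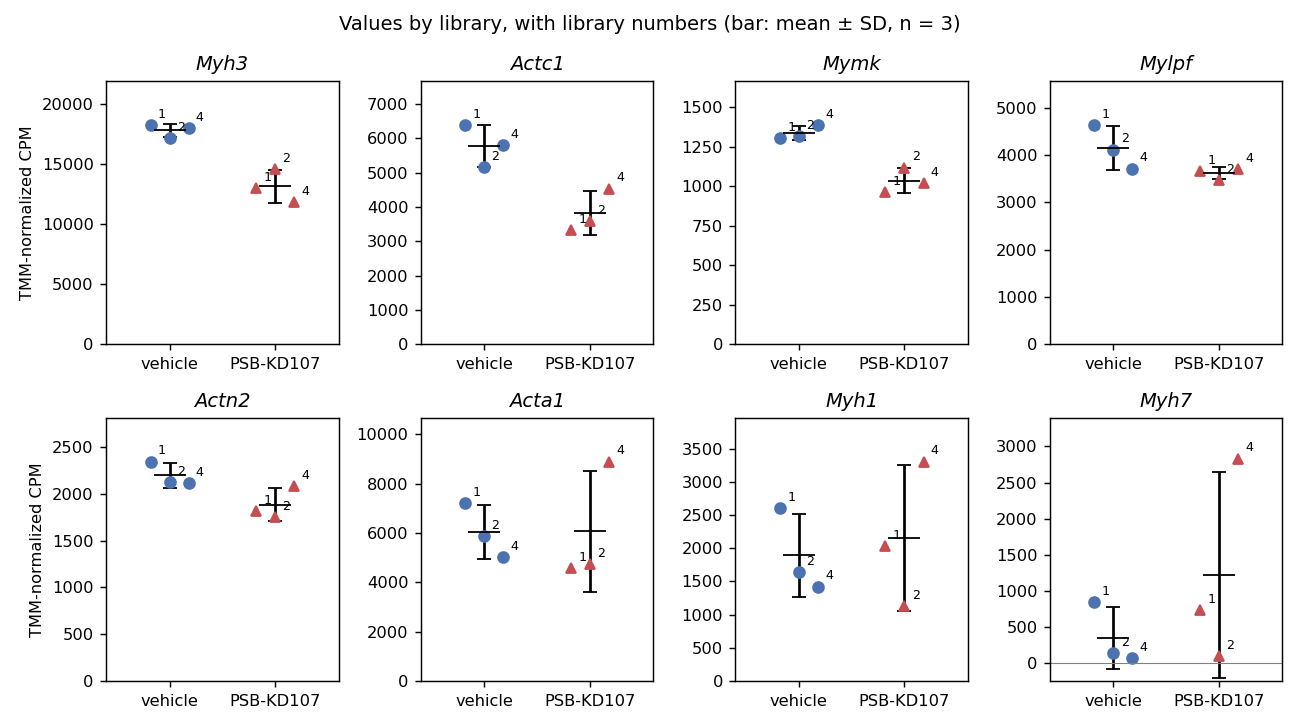
TMM-normalized CPM of 8 genes in each library, with library numbers beside the points and bars for the mean ± SD (n = 3). In Myh3, Actc1, Mymk, Mylpf and Actn2 every triangle (PSB-KD107) lies below every circle (vehicle), and in Acta1, Myh1 and Myh7 PSB-KD107 library 4 is the highest point.

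Among the light chains, Mylpf (the fast regulatory light chain) was at 4637, 4116 and 3712 CPM with vehicle and at 3654, 3468 and 3710 CPM with PSB-KD107. The groups did not overlap, but vehicle 4 and PSB-KD107 library 4 were nearly equal. The log2 fold change was -0.20 (SE 0.14, adjusted p = 0.706 in edgeR and 0.528 in DESeq2). Myl4, the embryonic and atrial essential light chain, was at 3165, 2007 and 1669 CPM with vehicle and at 2532, 1720 and 2640 CPM with PSB-KD107. Myl1, the fast essential light chain, was at 3779, 1413 and 683 CPM with vehicle and at 3212, 919 and 2331 CPM with PSB-KD107. Both overlapped, and in Myl1 the spread within the vehicle group (5.53-fold) was far larger than the difference between the group means (log2 fold change 0.14, standard error 0.71).

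Actc1 encodes cardiac alpha actin, the alpha actin that skeletal muscle uses early in development (ENSMUSG00000068614, chromosome 2). It was at 6395, 5167 and 5801 CPM with vehicle and at 3335, 3578 and 4540 CPM with PSB-KD107, so that every PSB-KD107 library was below every vehicle library. The mean went from 5787 ± 614 to 3818 ± 637 CPM (SD, n = 3). Its log2 fold change of -0.60 (SE 0.18) was the most negative of the 39, with an adjusted p of 0.394 in edgeR and 0.0232 in DESeq2. Without vehicle library 1 the log2 fold change was -0.53, with an unadjusted edgeR p of 0.058.

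Acta1 encodes skeletal alpha actin, the form of adult fibers. It was at 7211, 5875 and 5019 CPM with vehicle and at 4572, 4726 and 8895 CPM with PSB-KD107. The first 2 PSB-KD107 libraries were below every vehicle library and the remaining one above every vehicle library, and the log2 fold change was 0.01 (SE 0.31). Without PSB-KD107 library 4 it was -0.38. The coding sequences of both alpha actins are similar, as are those of the fast, embryonic and neonatal myosin heavy chains. How any reads shared between such genes were counted is not stated, so their split is uncertain.

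Actc1 made up 45.7%, 45.5% and 52.3% of the alpha actin level per kb in the vehicle libraries and 40.9%, 41.8% and 32.6% in the PSB-KD107 libraries. All 3 PSB-KD107 shares were below the lowest vehicle share, and the mean share went from 47.8% ± 3.88 to 38.5% ± 5.06 (SD, n = 3). An exact permutation test of 3 libraries against 3 cannot give a two-sided p below 0.1, so no single share or gene can pass the threshold of 0.05 in such a test.

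Within the myosin heavy chain family, here with Myh4 (the fast IIb chain, no member of the set) included, Myh3 made up 74.8%, 86.5% and 89.7% of the level per kb with vehicle and 72.1%, 88.9% and 65.6% with PSB-KD107. The groups overlapped. Myh3 and Myh8 together made up 86.1%, 91.2% and 92.8% with vehicle and 83.7%, 92.5% and 70.9% with PSB-KD107. Slow Myh7 made up 2.43%, 0.491% and 0.230% with vehicle and 2.87%, 0.435% and 11.0% with PSB-KD107. The fast chains made up 11.4%, 8.34% and 7.02% with vehicle and 13.5%, 7.03% and 18.1% with PSB-KD107. PSB-KD107 library 4 thus had the lowest embryonic and neonatal share and the highest slow and fast shares, while PSB-KD107 library 2 lay within the range of the vehicle libraries for all 3 classes.

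**Figure D4:**
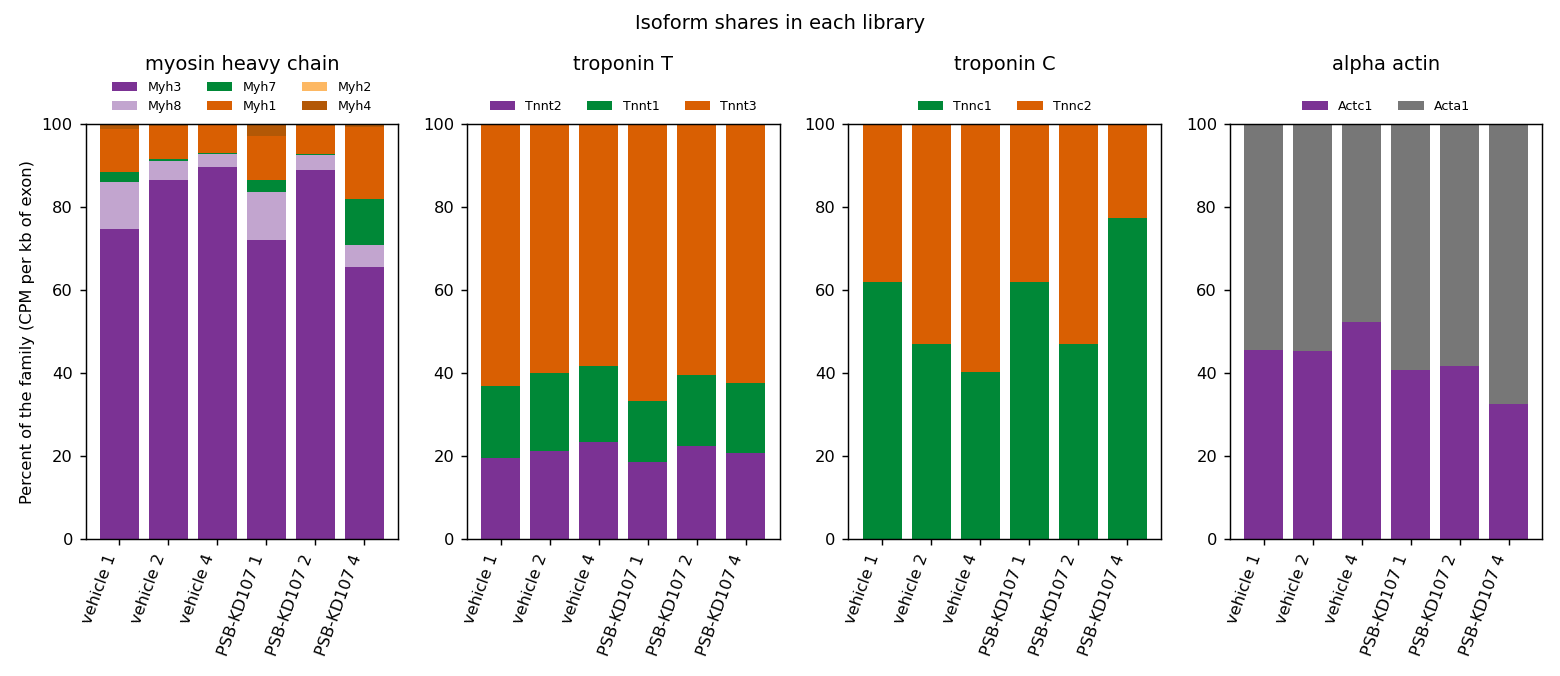
Share of each isoform within its family in each library, computed from CPM per kb of exon, for the myosin heavy chains, troponin T, troponin C and the alpha actins. Myh3 is the main heavy chain in all 6 libraries, the Actc1 share is at most 41.8% with PSB-KD107 and at least 45.5% with vehicle, and the Tnnc1 share ranges from 40.4% in vehicle 4 to 77.4% in PSB-KD107 library 4.

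The troponins are the calcium switch of the thin filament, with the T subunit holding the complex to tropomyosin, I inhibiting and C binding calcium. Among the 7 troponin genes none had an unadjusted p under 0.05, and the groups overlapped for each. Tnnc1, the slow and cardiac troponin C, was at 2818, 1167 and 832 CPM with vehicle and at 2402, 969 and 2501 CPM with PSB-KD107. Tnnc2, the fast troponin C, was at 1329, 1005 and 943 CPM with vehicle and at 1130, 841 and 561 CPM with PSB-KD107. The 2 troponin C genes therefore went opposite ways in PSB-KD107 library 4, where Tnnc1 was the highest of its group and Tnnc2 the lowest of all libraries. Of the annotated exon length of Tnnc2, 74.0% overlaps Ube2c on the other strand, and whether strand was used in counting is not stated. Ube2c had 306 to 804 counts with vehicle and 221 to 674 with PSB-KD107.

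Tnnt2, the embryonic and cardiac troponin T, was at 4350, 3162 and 3359 CPM with vehicle and at 3491, 2851 and 3709 CPM with PSB-KD107. Tnnt1, the slow form, was at 1101, 795 and 736 CPM with vehicle and at 783, 611 and 859 CPM with PSB-KD107. Tnnt3, the fast form, was at 2857, 1815 and 1698 CPM with vehicle and at 2558, 1562 and 2283 CPM with PSB-KD107. The 3 genes overlapped between groups, with log2 fold changes of -0.11, -0.22 and 0.01 in that order. Per kb, Tnnt3 made up the largest share of troponin T in every library (58.3% to 66.7%), but with CPM not divided by length Tnnt2 did (51.1% to 58.0%). The joined annotated exons of Tnnt2 cover 7752 bases and those of Tnnt3 1583. Isoforms were not resolved, so which of these genes led is uncertain. Tnnt1 made up 17.4%, 18.8% and 18.2% with vehicle and 14.7%, 17.0% and 16.9% with PSB-KD107, which did not overlap, although the mean difference was 1.96 percentage points.

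Tnni1, the slow troponin I, was at 2258, 1594 and 1368 CPM with vehicle and at 1758, 1190 and 2681 CPM with PSB-KD107. Tnni2, the fast form, was at 234, 131 and 109 CPM with vehicle and at 192, 104 and 234 CPM with PSB-KD107. Tnni1 made up between 79.2% and 83.9% of troponin I per kb, while each of the 2 levels ranged 2.25-fold over the libraries. Tpm2, the beta tropomyosin, was at 4856, 3872 and 3963 CPM with vehicle and at 4076, 3384 and 4162 CPM with PSB-KD107. Tpm1, the alpha tropomyosin, was at 1486, 1813 and 1846 CPM with vehicle and at 1224, 1790 and 2817 CPM with PSB-KD107. Both tropomyosins overlapped between the groups, and for Tpm1 the libraries numbered 1 were the 2 lowest.

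Among the scaffold genes, Ttn was at 1458, 1272 and 1588 CPM with vehicle and at 1300, 1374 and 2827 CPM with PSB-KD107. Neb, encoding nebulin of the thin filament, was at 1546, 1330 and 1597 CPM with vehicle and at 1620, 1479 and 2136 CPM with PSB-KD107. In both genes PSB-KD107 library 4 was above all others and the other 5 libraries lay close together. The log2 fold change of Ttn, 0.35 (SE 0.33), was -0.11 without that library. Myom1 and Myom2 encode the myomesins that cross-link myosin at the M-band. Myom1 was at 372, 385 and 353 CPM with vehicle and at 327, 365 and 521 CPM with PSB-KD107. Myom2 was at 811, 648 and 479 CPM with vehicle and at 786, 588 and 1140 CPM with PSB-KD107. Library 4 was the highest for both here as well.

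The myosin-binding proteins brace the thick filament. Mybph was at 2817, 2117 and 1882 CPM with vehicle and at 1831, 1676 and 2429 CPM with PSB-KD107, and 49.9% of its exon length overlaps Adora1 on the other strand. Mybpc1, the slow form of myosin-binding protein C, was at 653, 540 and 380 CPM with vehicle and at 514, 448 and 477 CPM with PSB-KD107. Mybpc2 was at 5.49, 0.916 and 0.372 CPM with vehicle and at 6.74, 0.962 and 2.09 CPM with PSB-KD107. All 3 overlapped between groups, and Mybpc2 ranged 18.1-fold over the libraries, with the libraries numbered 1 highest. Mybpc1 made up at least 98.4% of the 2 C-type forms per kb in every library.

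At the Z-disc, Actn2 encodes alpha-actinin 2, which anchors actin filaments. It was at 2345, 2128 and 2116 CPM with vehicle and at 1817, 1753 and 2084 CPM with PSB-KD107. The groups did not overlap, with PSB-KD107 library 4 just under vehicle 4, and the log2 fold change was -0.22 (SE 0.13, adjusted p = 0.657 in edgeR and 0.437 in DESeq2). Without PSB-KD107 library 4, which lay nearest to the vehicle group, the log2 fold change was -0.30 and the unadjusted edgeR p 0.0355. Ldb3, encoding the Z-disc protein ZASP, was at 792, 528 and 502 CPM with vehicle and at 552, 455 and 932 CPM with PSB-KD107. Myoz2, a calcineurin-binding protein of slow fibers, was at 206, 86.5 and 55.8 CPM with vehicle and at 182, 71.0 and 76.4 CPM with PSB-KD107. Myoz1 was at 9.29, 1.92 and 1.24 CPM with vehicle and at 7.47, 1.86 and 3.99 CPM with PSB-KD107. These 3 overlapped, and both myozenins were highest in the libraries numbered 1.

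Des encodes desmin, the intermediate filament that links Z-discs, and was at 3652, 2996 and 2784 CPM with vehicle and at 3932, 2904 and 3599 CPM with PSB-KD107, so that the groups overlapped. Cryab encodes a small heat shock protein that protects desmin and was at 647, 716 and 728 CPM with vehicle and at 570, 786 and 400 CPM with PSB-KD107. PSB-KD107 library 4 was the lowest and PSB-KD107 library 2 the highest of all for Cryab. Ckm encodes muscle creatine kinase, which regenerates ATP, and was at 287, 340 and 425 CPM with vehicle and at 222, 281 and 818 CPM with PSB-KD107. PSB-KD107 library 4 was above and PSB-KD107 libraries 1 and 2 were below every vehicle library. The log2 fold change of Ckm was 0.33 (SE 0.51) and -0.48 without library 4.

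Of the 5 excitation-contraction members none had an unadjusted p under 0.05, and the groups overlapped for each. Cacna1s, the voltage sensor of the membrane, was at 481, 322 and 276 CPM with vehicle and at 358, 261 and 607 CPM with PSB-KD107. Ryr1, the calcium release channel, was at 1239, 988 and 1113 CPM with vehicle and at 1186, 985 and 1018 CPM with PSB-KD107. Ryr1 was the steadiest of the 39, with the highest library 1.26 times the lowest. Atp2a1, the fast calcium pump that refills the store, was at 3248, 2118 and 2233 CPM with vehicle and at 2521, 1465 and 2152 CPM with PSB-KD107, and 21.9% of its exon length overlaps Rabep2 on the other strand. Casq1 and Casq2, the fast and the slow or cardiac calcium-storing calsequestrins, ranged more widely. Casq1 was at 540, 232 and 95.9 CPM with vehicle and at 424, 140 and 369 CPM with PSB-KD107. Casq2 was at 1485, 887 and 618 CPM with vehicle and at 1111, 676 and 1624 CPM with PSB-KD107. Per kb, Casq2 made up between 65.1% and 82.1% of the pair.

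Mymk was at 1306, 1320 and 1389 CPM with vehicle and at 966, 1119 and 1021 CPM with PSB-KD107 (ENSMUSG00000009214, chromosome 2). The groups did not overlap, and the vehicle libraries differed by only 1.06-fold. The mean went from 1338 ± 44.4 to 1035 ± 77.6 CPM (SD, n = 3), a log2 fold change of -0.37 (SE 0.11), with an adjusted p of 0.399 in edgeR and 0.0039 in DESeq2. Without vehicle library 4 the unadjusted edgeR p was 0.059, with a log2 fold change of -0.34. In bulk RNA, fewer differentiated cells and less of these transcripts per cell cannot be told apart, here or for any gene above.

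**Figure D5:**
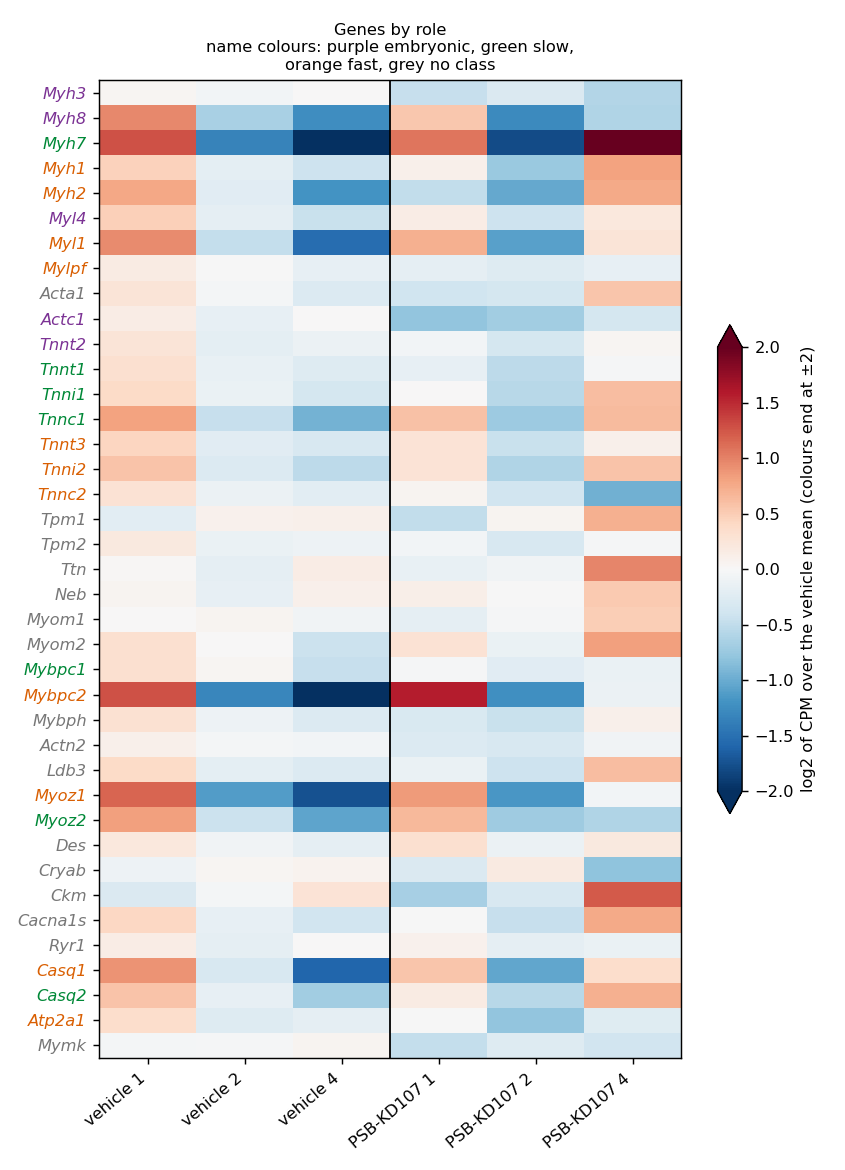
Log2 of each library's CPM over the vehicle mean for the 39 genes, ordered by role, with the colours ending at a difference of 2. Vehicle library 1, PSB-KD107 library 1 and PSB-KD107 library 4 hold most of the high values, and the rows of Myh3, Actc1, Mymk, Mylpf and Actn2 are below the vehicle mean in all 3 PSB-KD107 libraries.

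The members varied between libraries of the same group more than most genes did. With an offset of 0.1 CPM, their median ratio of the highest to the lowest vehicle library was 1.53, against 1.31 over all genes tested, and among the PSB-KD107 libraries it was 1.97 against 1.44. The highest library was vehicle 1 for 21 members and PSB-KD107 library 4 for 14. Both libraries numbered 1 were above vehicle 2, vehicle 4 and PSB-KD107 library 2 for 23 members (59.0%), where 26.3% of all genes were. They were below these 3 libraries for 2 members (5.13%), where 28.1% of all genes were. PSB-KD107 library 4 was left out of this comparison, which was not among those planned. The size of the log2 fold change exceeded the log2 range of the vehicle libraries for 7 members (17.9%), against 27.0% of all genes. These were Myh3, Mymk, Actc1, Actn2, Cryab, Myom1 and Ttn, of which only the first 4 had groups that did not overlap.

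Myog, the factor that drives terminal differentiation, was at 2042, 2203 and 2158 CPM with vehicle and at 1175, 1726 and 1661 CPM with PSB-KD107. Like Myh3, Actc1 and Mymk, it had no overlap between groups, with a log2 fold change of -0.49 (SE 0.18, adjusted p = 0.469 in edgeR and 0.124 in DESeq2). Myod1, the myoblast determination factor, was at 515, 956 and 1060 CPM with vehicle and at 399, 765 and 523 CPM with PSB-KD107, which overlapped. Pax7 was at 68.8, 49.9 and 60.0 CPM with vehicle and at 34.0, 26.8 and 35.1 CPM with PSB-KD107, a log2 fold change of -0.90 (SE 0.17, adjusted p = 0.209 in edgeR and 0.00067 in DESeq2). Among the 22 myogenic regulators tested, 1 was higher and 4 lower at an unadjusted p under 0.05. Besides Pax7 and Myog these were Hey1 (log2 fold change -0.82), Tead4 (-0.35) and Eya1 (1.61).

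Mymx encodes myomixer, the partner of myomaker in fusion, and is listed in the table as Gm7325. It was at 278, 222 and 204 CPM with vehicle and at 165, 158 and 111 CPM with PSB-KD107. As with Mymk the groups did not overlap, and the log2 fold change was -0.70 (SE 0.20, adjusted p = 0.361 in edgeR and 0.0428 in DESeq2). Of the 28 fusion genes tested beside Mymk, Mymx included, 3 higher and 2 lower genes (Mymx and Adam12) had an unadjusted p under 0.05. Adam12, a metalloprotease of fusing myoblasts, had a log2 fold change of -1.90 (SE 0.33, adjusted p = 0.189 in edgeR and 3.1e-05 in DESeq2). The higher genes were Dock1 (0.59), Anxa1 (0.53) and Nckap1 (0.27), all by log2 fold change, and only Anxa1 passed in DESeq2 (adjusted p = 0.0241). The share of genes at this unadjusted threshold among all genes tested is given above.

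Of 48 other sarcomere and Z-disc genes tested, 1 was higher and 4 lower at an unadjusted p under 0.05. The lower genes were Myom3 (log2 fold change -0.43), another myomesin gene, Klhl31 (-0.64), Hspb2 (-0.25) and Myh13 (-1.80, at no more than 3.66 CPM), and the higher gene was Synm (0.63), encoding the intermediate filament protein synemin. Only Myom3 passed in DESeq2 (adjusted p = 0.0226). Hspb2 overlaps 17.0% of the exon length of Cryab on the other strand. Of 36 other excitation-contraction genes tested, 1 was higher and 2 lower. Sln, encoding sarcolipin, an inhibitor of the calcium pump, was at 5.89, 7.68 and 5.15 CPM with vehicle and at 1.67, 3.37 and 3.16 CPM with PSB-KD107 (adjusted p = 0.0401 in DESeq2). The log2 fold change was -0.34 for Stac3, which couples the voltage sensor to the release channel, and 0.31 for Rapsn, which clusters acetylcholine receptors.

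Of 15 muscle creatine and energy genes tested, 2 higher genes and 1 lower gene had an unadjusted p under 0.05. Cox8b, a muscle subunit of cytochrome c oxidase, was at 28.8, 27.4 and 24.3 CPM with vehicle and at 54.0, 66.5 and 61.3 CPM with PSB-KD107. Ckb, the brain-type creatine kinase, was at 421, 336 and 331 CPM with vehicle and at 200, 142 and 127 CPM with PSB-KD107. Neither overlapped between groups, with log2 fold changes of 1.18 and -1.21 and DESeq2 adjusted p-values of 5.8e-13 and 1.7e-05 in that order. In edgeR the adjusted p was 0.0874 for Cox8b and 0.184 for Ckb. Fabp3, a muscle fatty acid-binding protein, had a log2 fold change of 1.15 (SE 0.43). Unlike Ckb, the muscle creatine kinase gene Ckm overlapped between the groups.

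Other cell types and the cell cycle were read beside the members. Of the 20 cell cycle genes tested, 17 had negative log2 fold changes, where 7099 of all 14165 genes tested did. In edgeR 0 of the 20 had an unadjusted p under 0.05, and 0 were called in DESeq2. Their summed CPM ran from 2806 to 6718 with vehicle and from 2226 to 3640 with PSB-KD107, so that the groups overlapped. Cdkn1c, a cell cycle inhibitor expressed by differentiating myoblasts, had the smallest p of these, at 232, 2478 and 3889 CPM with vehicle and at 89.4, 1086 and 72.2 CPM with PSB-KD107. Col1a1 had 109 counts in vehicle library 1 and 28 in PSB-KD107 library 4, against 3 to 6 in the others. Of 7 fibroblast markers tested, 4 had positive and 3 negative log2 fold changes, with a median of 0.07. Of 8 smooth muscle markers tested, 4 were positive and 4 negative, with a median of 0.02. In each list 1 gene had an unadjusted p under 0.05 in edgeR. These were Col1a2, a fibroblast collagen gene (log2 fold change -1.03, at no more than 4.09 CPM), and Smtn, a smooth muscle gene (-0.51). The part of such cells, of proliferation and of the low Dmd counts in the differences between libraries was not tested.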

How the data were processed

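RNA of mdx myoblasts was sequenced, in 3 libraries with 10 μM PSB-KD107 and 3 with vehicle. Per the study's methods, polyadenylated RNA was made into directional libraries, sequenced in paired-end mode, processed with GenPipes and aligned with STAR to mouse genome mm10. The authors deposited raw counts per gene, with no normalization. The counting program, annotation and strand setting are not given in the sources used here. Reads shared by similar genes or overlapping exons may therefore be split. The libraries numbered 4 in the table have no sample record of that number and were used by group only. No per-sample column was left unused.

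Gene models came from GENCODE M21 (GRCm38), which holds 46574 of the 47069 genes, and promoters from RefSeq (GRCm38.p6). Genes were filtered with filterByExpr and scaled by TMM factors (0.974 to 1.03). PSB-KD107 was compared with vehicle by the quasi-likelihood test of edgeR 4.0.16 in R 4.3.3, with Benjamini-Hochberg adjustment over 14165 genes at a threshold of 0.05. DESeq2 1.42.0, which the study used, was an alternative and gave an adjusted p for 14090 genes. Levels between genes were compared as CPM per kb of exon. The pipeline was tested on simulated data. Totals differed by less than 2-fold between libraries. Replicates are described as cells of 3 mice, and which library came from which mouse is not stated.

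The members, isoform classes and gene lists were chosen with earlier results of these data known. All 39 members are named. Of each other list, the genes at an unadjusted p under 0.05 were named (at most 6) or, with none, the gene with the smallest p. Myog, Myod1, Pax7 and Mymx were named by rule, and Dmd, Mki67, Col1a1, Acta2, Ube2c, Adora1, Rabep2 and Myh4 to describe libraries or neighbours.

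As alternatives, genes were kept at any count or only where the mean FPKM reached 1 in either group. RLE factors, DESeq2, a replicate block, shares not divided by length, a shorter promoter window, and the omission of each library were also tried. DESeq2 with each library left out and libraries 1 and 2 without a block were added after seeing the data.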

Additional observations from a re-analysis of the deposited data

How the results depend on the processing

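Across all genes tested, edgeR called 0 genes, 8 with no filter on low counts and 480 (3 of them members) in DESeq2. RLE factors and the FPKM filter changed no count. When single libraries were left out, the count of all genes called ran from 0 to 815, with 0 in every edgeR fit and 184 to 815 in DESeq2. Members called at an adjusted p ran from 0 to 4, members higher at an unadjusted p from 0 to 4, and members lower from 1 to 6. DESeq2 called 0 members without vehicle 2, vehicle 4 or PSB-KD107 library 1, Myh3 and Mymk without vehicle 1 or PSB-KD107 library 2, and Actn2, Actc1, Myh3 and Mymk without PSB-KD107 library 4. Members lower in edgeR numbered 1 without vehicle 1 (Mymk) and 1 without vehicle 4 (Actc1). The cause of these changes was not tested. The median log2 fold change of the members ran from -0.17 without vehicle 4 to 0.26 without vehicle 1 in edgeR, within the spread of 0.34 between libraries. Its sign turned between fits, as did those of the 4 isoform classes. When CPM was not divided by length, the differences in isoform shares between groups moved by less than 1 SD, but the shares themselves moved further, with the vehicle mean going from 21.5% to 55.0% for Tnnt2, from 60.4% to 31.7% for Tnnt3 and from 39.4% to 58.4% for Myl4. Of 739 alternative values of single members, 561 kept their direction and their side of the unadjusted threshold, and 9 no longer passed it. Another 25 passed it anew with the same sign, and 144 of members not past it in the full fit changed sign. Some of these 144 also passed the threshold with the new sign, such as Acta1 and Ckm in DESeq2 without PSB-KD107 library 4.

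Correlations of deviations from the group mean, between libraries of the same number, were 0.63 (number 1), 0.52 (number 2) and -0.13 (number 4). Vehicle 4 correlated best with PSB-KD107 library 2 (0.64). Deviations within a group cancel out, so these correlations depend on each other and cannot decide whether the numbers pair the libraries. The main fit treated the libraries as unpaired. With a replicate block on libraries 1 and 2, edgeR called 2456 genes and 23 members. There, 29 members were lower at an unadjusted p under 0.05, with a median of -0.31 over the members. The share of all genes lower in that fit was not computed. The same libraries with no block gave 0 genes, 2 members lower and a median of -0.30. With the block on all 6 libraries 0 genes were called and 3 members were lower (Actc1, Mymk and Tnnc2).

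With 3 libraries per group, differences smaller than the spread between libraries were not detectable for members such as Myh7, Mybpc2 and Myl1.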
